A study of Mus musculus with 4 samples.

Results

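The Ndrg family of the mouse holds 4 genes, Ndrg1, Ndrg2, Ndrg3 and Ndrg4, which were taken by their symbols from a table of 49585 genes. All 4 proteins share an alpha/beta–hydrolase fold without known enzyme activity. Ndrg1 is known as a metastasis suppressor that is induced by hypoxia, cellular stress and iron chelators. Iron–dependent prolyl hydroxylases mark the alpha subunit of hypoxia–inducible factor (HIF) for destruction through Vhl, and a chelator that withholds iron leaves HIF active. Ndrg2 is best known from brain and as a candidate tumor suppressor, Ndrg3 as a lactate–binding protein controlled by the prolyl hydroxylase Egln1, and Ndrg4 from brain and heart.

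Bulk RNA–seq was performed on 2 clones, each grown from 1 cell of the mouse triple–negative breast cancer (TNBC) line 4T1, of which 4T1–HM metastasizes readily and 4T1–LM poorly. Each clone was cultured in wells for 48 h with 50 μmol/L of the oral iron chelator deferasirox (DFX) or with its solvent DMSO alone, and gave 1 library per condition, named HM_Ctrl, HM_DFX, LM_Ctrl and LM_DFX. The study used these libraries to ask why the clones tolerate a change of iron differently. Since each capacity stands for 1 clone and each condition for 1 library, clone and capacity cannot be told apart, differences lack a check by replicates, and p–values are not given.

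The values are FPKM, fragments per kilobase of exon scaled to the depth of the library, which compare levels between genes per length. The libraries held between 14363065 and 21883855 counted fragments, recovered from the FPKM. Intervals cover 95% and counting error only: exact Poisson for a level, exact conditional binomial for a fold. Changes are log2 ratios of FPKM + 1, which understate the change of low genes, and a gene with a change of at least 2-fold is called higher or lower. Called genes were counted among 12669 expressed genes, those that reached an FPKM of 1 in some library, and all 4 Ndrg genes passed that filter.

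The epithelial identity of the clones was read from 7 mammary epithelial markers, all with an FPKM of at least 1 in some library. Their summed FPKM was lower under DFX in both clones, at 591 in HM_DFX against 1712 in HM_Ctrl and at 1135 in LM_DFX against 2209 in LM_Ctrl, and its part in the changes of the Ndrg genes was not tested. Krt8 and Krt18 carried most of this sum, and in 4T1–LM cells Krt19 was higher under DFX, at 103 against 46.4 FPKM, and Cldn4 was at 43.2 in both libraries. Of the receptors that TNBC lacks by definition, Pgr was listed at 0 in every library and Esr1 reached 0.529, whereas Erbb2 lay between 3.80 and 12.5 FPKM. Only 1 of 5 fibroblast markers, none of 3 endothelial markers and 1 of 5 leukocyte markers reached an FPKM of 1. The leukocyte marker was Cd68, a lysosomal glycoprotein, at 12.9 in HM_Ctrl against 37.4 in HM_DFX, and 12.3 in LM_Ctrl against 83.1 in LM_DFX, while Cd3e and Adgre1 were at 0 and Ptprc did not exceed 0.0139.

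The coding sequences of the members are related but easily told apart. They run from 1020 bases in Ndrg4 to 1185 in Ndrg1, and aligned pairs were identical at between 67.3% of bases, for Ndrg2 and Ndrg3, and 72.6%, for Ndrg1 and Ndrg4. Ndrg1 alone of the 4 held a tandem repeat of 30 bases near the end of its coding sequence, the stretch known for phosphorylation by the kinase Sgk1. Shifted by 30 bases, the best stretch of Ndrg1 matched itself at 50 of 60 bases (83.3%), and the best stretches of the other members at 41.7% to 43.3%. The 3 units are shown because they set Ndrg1 apart within the family and lie in exon 16 of its 16, within the bounds of an antisense gene described further on (chr15:66930951-66931040, minus strand, build GRCm38, from GENCODE transcripts). Capitals mark the bases identical to unit 1.
Ndrg1 unit 1: GAGGGCACCCGTAGCCGCTCCCATACCAGC
Ndrg1 unit 2: GAGGGCcCCCGaAGCCGCTCgCAcACCAGt
Ndrg1 unit 3: GAGGGgtCCCGTAGCCGCTCCCATACCAGt
Unit 2 differed from unit 1 at 5 bases and unit 3 at 3. Of all 31-base words in the Ndrg1 transcripts, none occurred in another member, and Ndrg2 and Ndrg4 shared 3 such words. Reads of 1 member can therefore be assigned to another in few places.

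Ndrg1 was by far the most abundant member in every library. Its gene (ENSMUSG00000005125) lies on the minus strand at chr15:66929321-66969640. Its level was 177 FPKM (174 to 179) in HM_Ctrl against 577 (572 to 582) in HM_DFX, and 49.1 (47.7 to 50.4) in LM_Ctrl against 613 (609 to 617) in LM_DFX, from 19528, 54641, 5089 and 88467 fragments in that order. The untreated clones were thus far apart and the treated clones close together, with no overlap between any of the 4 intervals. Among all genes ranked by FPKM, Ndrg1 moved from place 240 in HM_Ctrl to 60 in HM_DFX and from place 1168 in LM_Ctrl to 59 in LM_DFX. It took 0.117% of all counted fragments in HM_Ctrl and 0.380% in HM_DFX, against 0.0323% in LM_Ctrl and 0.404% in LM_DFX.

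The level of Ndrg4 followed the same direction as Ndrg1 under DFX at a much lower abundance. The gene (ENSMUSG00000036564) lies on the plus strand at chr8:95676980-95715119. Its level was 8.52 FPKM (7.90 to 9.17) in HM_Ctrl against 19.2 (18.2 to 20.3) in HM_DFX, and 2.27 (1.95 to 2.64) in LM_Ctrl against 7.75 (7.23 to 8.30) in LM_DFX, from 698, 1351, 175 and 830 fragments. HM_DFX stood highest and LM_Ctrl lowest, and the intervals of HM_Ctrl and LM_DFX overlapped, so that the treated 4T1–LM cells held about the level of the untreated 4T1–HM cells.

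Ndrg3 was low in every library and lower under DFX in both clones, without reaching the 2-fold threshold. The gene (ENSMUSG00000027634) lies on the minus strand at chr2:156927345-156992056. Its level was 3.34 FPKM (3.04 to 3.66) in HM_Ctrl against 1.89 (1.65 to 2.15) in HM_DFX, and 3.12 (2.83 to 3.44) in LM_Ctrl against 2.04 (1.84 to 2.26) in LM_DFX. The intervals of the 2 controls overlapped, as did those of the 2 treated libraries, and both treated libraries lay below both controls.

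Ndrg2 was close to the limit of detection in LM_Ctrl. The gene (ENSMUSG00000004558) lies on the minus strand at chr14:51905271-51913488. Its level was 2.44 FPKM (1.95 to 3.00) in HM_Ctrl against 1.23 (0.868 to 1.68) in HM_DFX, and 0.0589 (0.00714 to 0.213) in LM_Ctrl against 0.869 (0.623 to 1.18) in LM_DFX, from 88, 38, 2 and 41 fragments. HM_Ctrl stood highest, LM_Ctrl lowest, and the intervals of the treated libraries overlapped. The exon length behind the deposited FPKM of Ndrg2 came out as 2157 bases, short of the 3075 exon bases of the gene models within the deposited bounds, so its level relative to the other members is less certain than its changes between libraries.

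**Figure D1:**
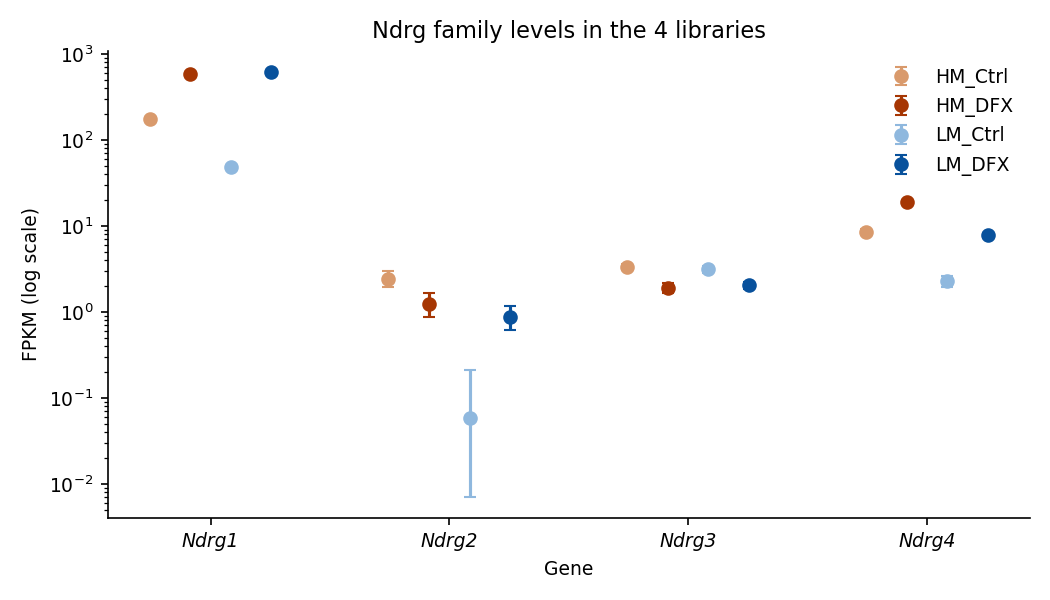
FPKM of the 4 Ndrg genes on a log axis, with 1 point per library and bars for the 95% Poisson interval of its fragments (bars narrower than a point are hidden). Ndrg1 lies between 49.1 and 613 and every other member at or below 19.2. The widest bar is that of Ndrg2 in LM_Ctrl, with 2 fragments.

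Ndrg1 held most of the family transcript pool throughout, and a larger share of it under DFX in both clones. The FPKM of the 4 members summed to 191 in HM_Ctrl against 599 in HM_DFX, and 54.5 in LM_Ctrl against 624 in LM_DFX. Ndrg1 made up 92.5%, 96.3%, 90.0% and 98.3% of these sums in the same order. Ndrg4 came second in HM_Ctrl with 4.46%, in HM_DFX with 3.21% and in LM_DFX with 1.24%, and Ndrg3 came second in LM_Ctrl with 5.73%.

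Under DFX in 4T1–HM cells, Ndrg1 and Ndrg4 were called higher and no member was called lower. The change of Ndrg1 was 1.70 on the log2 scale, or 3.26-fold (3.21 to 3.32) without the pseudocount, and stood at place 202 from the highest among the 12669 genes. The change of Ndrg4 was 1.09, or 2.26-fold (2.06 to 2.48), with a lower limit of 0.97 on the log2 scale, just under the threshold. Ndrg3, at −0.59, and Ndrg2, at −0.63, had values below 0 without passing the threshold, with Ndrg3 at 0.567 times (0.482 to 0.665) and Ndrg2 at 0.503 times (0.335 to 0.744) its control level. Over all expressed genes, 6.93% were called higher and 12.4% lower, 878 and 1568 genes, with a median of −0.10. Median–ratio scaling, which sets the typical gene of each library equal, moved that median to 0.00 and the split to 1118 higher and 1276 lower. Relative to that typical gene, Ndrg1 was at 1.84, Ndrg4 at 1.21, Ndrg3 at −0.49 and Ndrg2 at −0.54, with the same calls.

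The same members were called higher under DFX in 4T1–LM cells, and Ndrg1 by a larger fold. Ndrg1 changed by 3.62 on the log2 scale, a 12.5-fold difference (12.1 to 12.9), at place 30 from the highest. Ndrg4 changed by 1.42, or 3.41-fold (2.89 to 4.04). For Ndrg3 the value was −0.44, or 0.654 times (0.567 to 0.754) the control level, and it was not called. Ndrg2 had a value of 0.82 and was not called, with 2 fragments in the control and 41 under DFX, a ratio of 14.7 per depth with a counting interval of 3.83 to 126. With a pseudocount of 0.1 its value was 2.61 and without one 3.88, both past the threshold. In this comparison 7.09% of expressed genes were called higher and 8.72% lower, with a median of −0.04. In a bulk culture, more of a transcript per cell and a larger share of cells that hold it cannot be told apart.

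**Figure D2:**
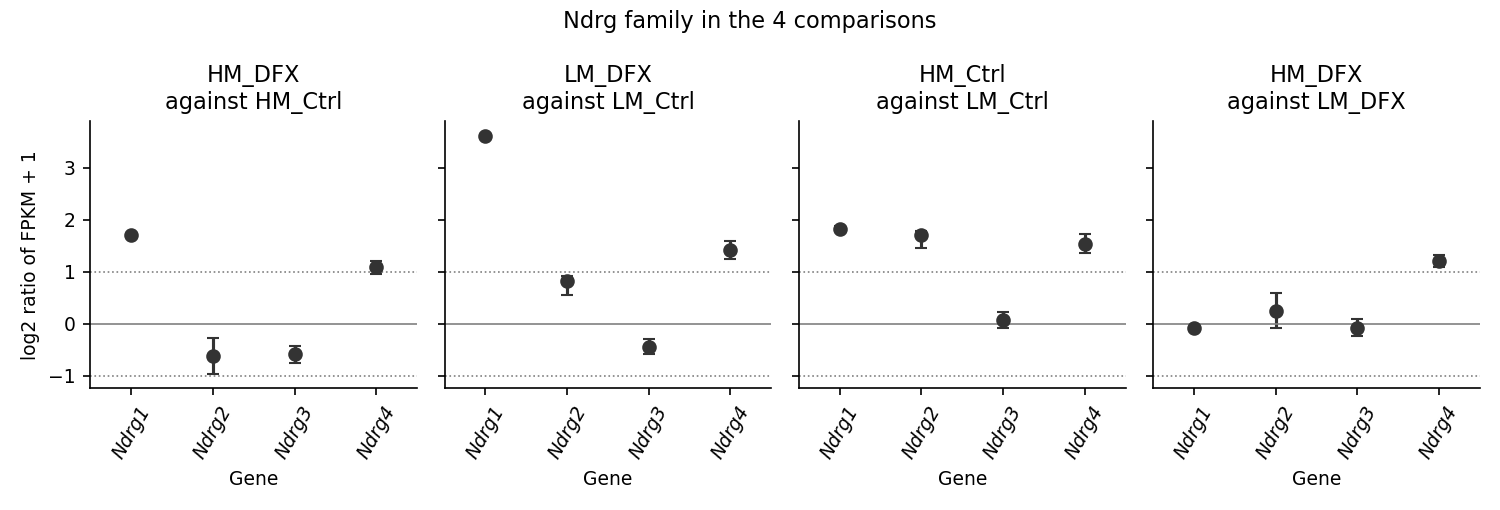
Log2 ratio of FPKM + 1 for each Ndrg gene in the 4 comparisons, with bars for the 95% counting interval, a solid line at 0 and dotted lines at the 2-fold threshold. Ndrg4 lies above the upper dotted line in all 4 panels, Ndrg1 in the first 3, and Ndrg3 within the dotted lines in all 4.

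Without DFX, 3 of the 4 members were called higher in 4T1–HM than in 4T1–LM cells. This comparison uses the control libraries of both DFX comparisons, so a low value in LM_Ctrl enters both. Ndrg1 was higher by 1.83, or 3.60-fold (3.50 to 3.72), and Ndrg4 by 1.54, or 3.75-fold (3.17 to 4.45). For Ndrg2 the value was 1.70, and the ratio of 88 to 2 fragments was 41.3 per depth, with a counting interval of 11.1 to 347. Ndrg3 had a value of 0.07, at 1.07-fold (0.935 to 1.22), an interval that includes equal levels. Among expressed genes 3.65% were called higher and 3.15% lower in HM_Ctrl, with a median of 0.01.

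Under DFX the clones differed in 1 member. Ndrg4 was called higher in HM_DFX than in LM_DFX, by 1.21 or 2.48-fold (2.27 to 2.71). The value of Ndrg1 was −0.09, at 0.941 times (0.931 to 0.951) the LM_DFX level, a difference beyond counting error but far below the threshold. Ndrg2, at 0.25 and 1.41-fold (0.884 to 2.25), and Ndrg3, at −0.07 and 0.926-fold (0.782 to 1.10), had intervals that include equal levels. In this comparison 3.31% of expressed genes were called higher and 5.05% lower, with a median of −0.05.

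The responses of the clones were also compared with each other for every member. The log2 change of Ndrg1 in 4T1–HM minus that in 4T1–LM cells was −1.92, and the fold in 4T1–LM cells was 3.83 times (3.71 to 3.96) the fold in 4T1–HM cells, at place 72 of all expressed genes in that direction. For Ndrg4 the fold in 4T1–LM cells was 1.51 times (1.25 to 1.83) that in 4T1–HM cells. The responses of Ndrg3 differed by −0.15, with an interval of −0.36 to 0.07 that includes an equal response. Ndrg2 differed by −1.45 and was the only member whose values had opposite signs in the clones, which rests on the 2 fragments of LM_Ctrl. The intervals cover counting error, and how much separate cultures of 1 clone vary was not measured.

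**Figure D3:**
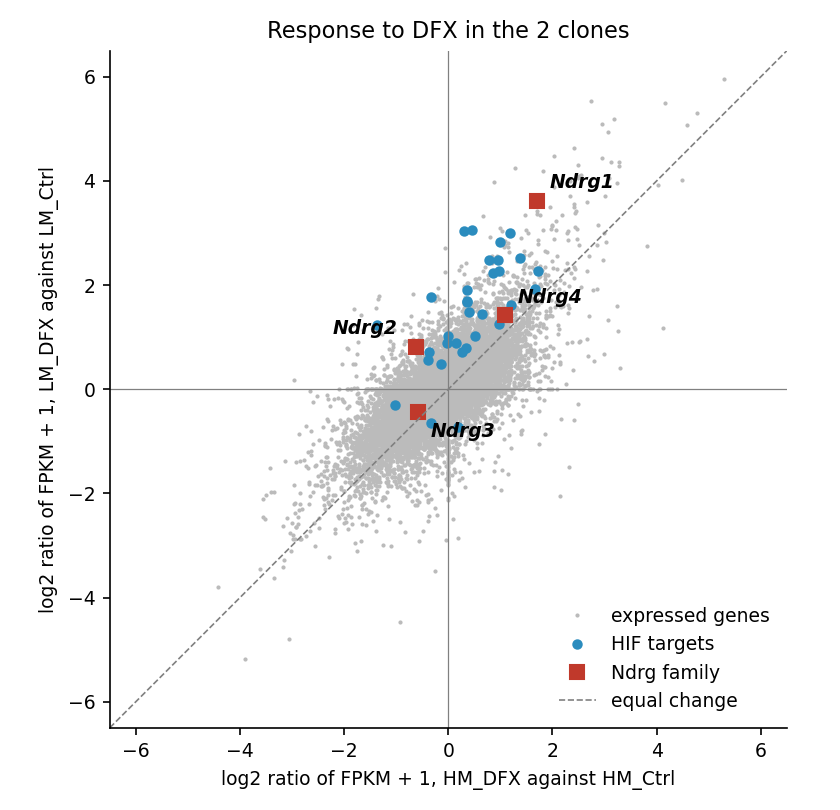
Log2 ratio of FPKM + 1 under DFX in 4T1–HM cells (x axis) and 4T1–LM cells (y axis) for the 12669 expressed genes (grey), the 32 expressed HIF targets (blue) and the 4 Ndrg genes (red squares), with a dashed line of equal change. Ndrg1, at 1.70 and 3.62, lies above the dashed line, Ndrg4 and Ndrg3 lie near it, and Ndrg2 lies above 0 on the y axis and below 0 on the x axis.

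For each member, the 5 protein–coding genes nearest in pattern were found as those with the smallest root mean square difference from it, over the 4 libraries, in log2(FPKM + 1) centered on each gene's own mean. For Ndrg1 these were Itpk1, an inositol phosphate kinase, Eno2, a glycolytic enolase, Ero1l, an endoplasmic reticulum oxidase, Angptl6, an angiopoietin–like protein, and Hmox1, the heme oxygenase that releases iron from heme, at distances from 0.19 to 0.38. Itpk1, the nearest, had 40.5 FPKM in HM_Ctrl against 160 in HM_DFX, and 15.7 in LM_Ctrl against 187 in LM_DFX. Like Ndrg1, it was lowest in LM_Ctrl and highest in LM_DFX. Hmox1 departed from that order, with 169 FPKM in HM_DFX above 86.1 in LM_DFX.

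The nearest genes of Ndrg4 lay at smaller distances, from 0.04 to 0.14, on a measure not scaled for the size of changes. They were Tanc2, a scaffold protein, Plk3, a stress–responsive kinase, Cnksr3, Rragc, a GTPase of amino acid sensing, and Hspa1b, an inducible heat shock protein. All 5 were highest in HM_DFX and lowest in LM_Ctrl, and Tanc2 had 12.1, 25.9, 3.16 and 10.7 FPKM in HM_Ctrl, HM_DFX, LM_Ctrl and LM_DFX. For Ndrg3 the nearest were Mospd2, Got2, the mitochondrial aspartate aminotransferase, Ash2l, a subunit of histone methyltransferases, Smim10l1 and Golga1, a Golgi protein, at 0.01 to 0.02. For Ndrg2 they were Rere, Il33, a cytokine, Tpp1, a lysosomal peptidase, Grn, which encodes progranulin, and Uap1l1, at 0.13 to 0.15. With 4 points, many genes have a like pattern, and ranking by Pearson correlation instead named none of the 5 for Ndrg1 and Ndrg2 and 2 of the 5 for Ndrg3 and for Ndrg4.

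**Figure D4:**
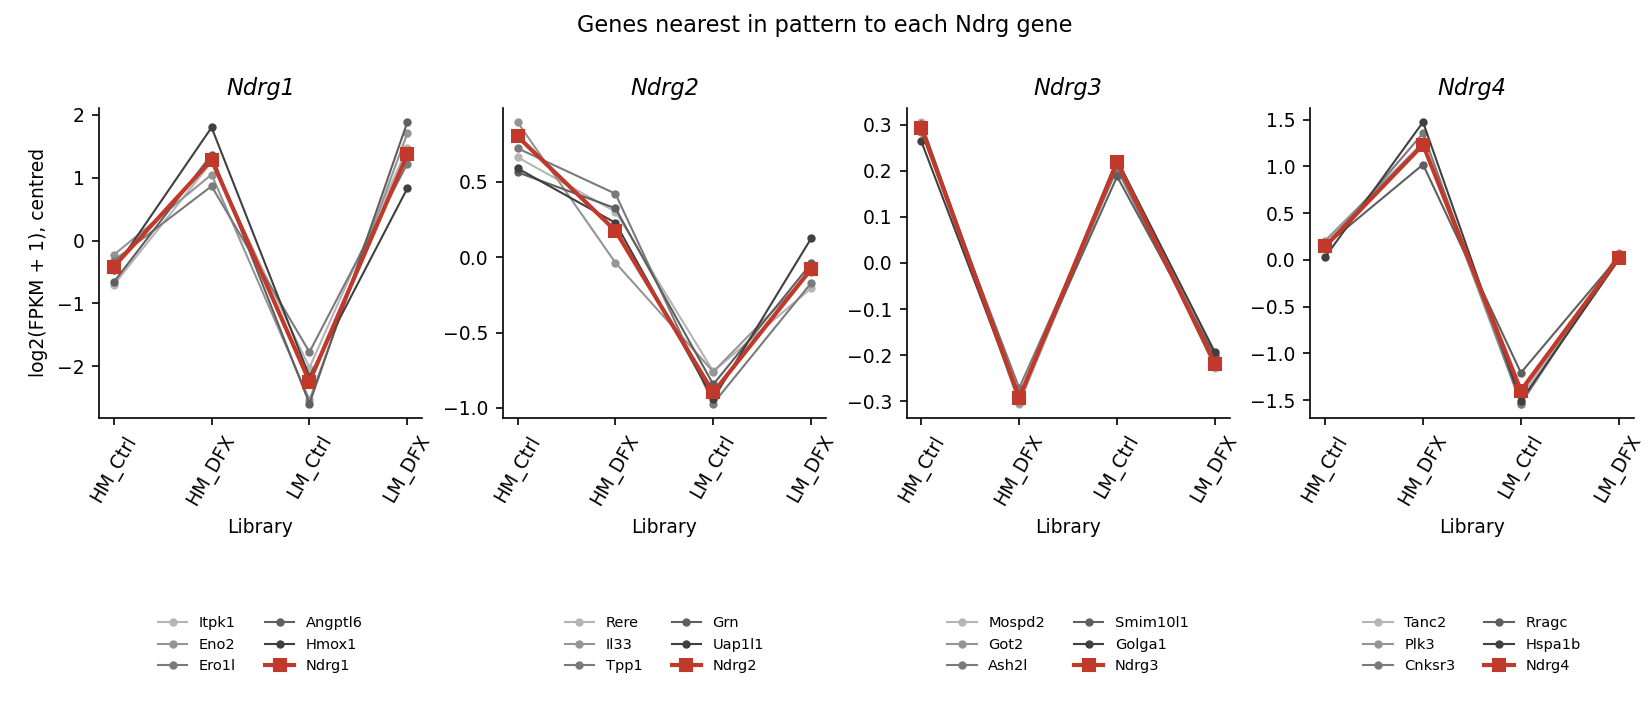
Centered log2(FPKM + 1) in the 4 libraries for each Ndrg gene (red squares) and the 5 protein–coding genes nearest to it in pattern (grey). Ndrg1 and its neighbours reach their lowest values in LM_Ctrl, as do those of Ndrg2 and Ndrg4, and the Ndrg3 panel is lowest in HM_DFX. Each panel has a scale of its own.

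Since Ndrg1 is a known HIF target, its change was set beside 35 other HIF targets, of which 32 were expressed. In 4T1–HM cells, 5 of the 32 were called higher and 2 lower, with a median of 0.35, where all expressed genes had 6.93% higher, 12.4% lower and a median of −0.10. In 4T1–LM cells, 22 were called higher and none lower, with a median of 1.56, where all expressed genes had 7.09% higher, 8.72% lower and a median of −0.04. The count in 4T1–HM cells depended on the scaling, since several targets there lay just under the threshold, at 0.95 to 0.99. With median–ratio scaling 10 of the 32 were called in 4T1–HM cells, in either direction, against 7 without it. In 4T1–LM cells 22 were called with either scaling. On the scale with the pseudocount, Ndrg1 had a larger change in 4T1–LM cells than every one of the 32. Without it, the ratios of the low genes Adm and Ankrd37 were larger than that of Ndrg1. Adm had 0.236 FPKM in LM_Ctrl against 9.26 in LM_DFX, from 6 and 328 fragments. Ankrd37, only slightly past Ndrg1, had 1.57 against 20.1, from 38 and 676 fragments. The largest values in HM_DFX were those of Kdm3a, a histone demethylase, with 1.72 in 4T1–HM and 2.26 in 4T1–LM cells, Pfkfb3, a regulator of glycolysis, with 1.67 and 1.93, and Higd1a, a mitochondrial protein, with 1.37 and 2.52. With the pseudocount, Kdm3a alone lay above Ndrg1 in 4T1–HM cells, by less than its counting interval of 1.65 to 1.79. Without it, Pfkfb3 also had a larger ratio than Ndrg1, with 2.49 FPKM in HM_Ctrl against 10.1 in HM_DFX. The lowest were Egln3, a prolyl hydroxylase, with −1.36 and 1.24, Ddit4, an inhibitor of mTOR complex 1, with −1.01 and −0.30, and Plin2, a lipid droplet protein, with −0.39 and 0.55. Without DFX, 10 of the 32 were called higher in 4T1–HM cells and 1 lower, with a median of 0.55 (all expressed genes: 3.65% higher, 3.15% lower, median 0.01), and under DFX none was higher and 6 were lower, with a median of −0.34 (all expressed genes: 3.31% higher, 5.05% lower, median −0.05). For Ndrg1 the values of these last 2 comparisons were 1.83 and −0.09.

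**Figure D5:**
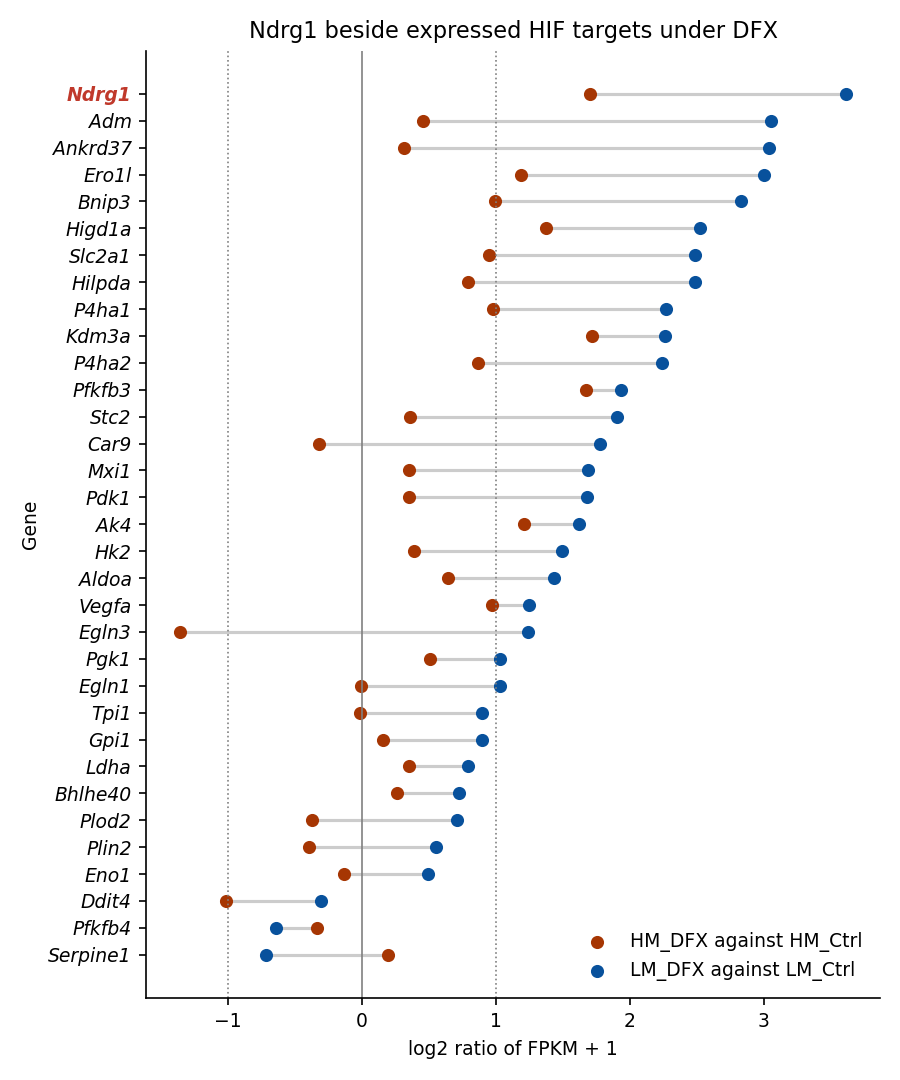
Log2 ratio of FPKM + 1 under DFX for Ndrg1 and the 32 expressed HIF targets, sorted by the value in 4T1–LM cells, with the value in 4T1–HM cells joined to it by a line, a solid line at 0 and dotted lines at the 2-fold threshold. Ndrg1 stands at the top with 3.62 in 4T1–LM and 1.70 in 4T1–HM cells, and 22 of the 32 targets lie past the upper dotted line in 4T1–LM cells against 5 in 4T1–HM cells.

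Of 18 genes known to act upstream of Ndrg1, 15 were expressed. Under DFX 3 were called higher and 2 lower in 4T1–HM cells, with a median of 0.50, and 6 were called higher and 1 lower in 4T1–LM cells, with a median of 0.93. The lower calls, 13.3% and 6.67% of the 15, were near the 12.4% and 8.72% of all expressed genes, and the higher calls, 20% and 40%, compare with 6.93% and 7.09%. Hif1a, which encodes the HIF subunit that iron controls at the protein level, was called lower in 4T1–HM cells, at −1.15, and had −0.81 in 4T1–LM cells, so its transcript did not move with that of Ndrg1. Its partner Arnt had 0.50 and 0.97, and Epas1 was not expressed. Of the prolyl hydroxylases, Egln1 had −0.01 in 4T1–HM and was called higher in 4T1–LM cells at 1.03, Egln2 had −0.65 and −0.72, and Egln3 was called lower in the former and higher in the latter. Vhl had 0.38 and was called higher in 4T1–LM cells at 1.22.

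Atf3, a stress–induced transcription factor, had the largest change of this list in both clones. It was called higher in both clones, by 3.07 and 4.94, with 45.0 FPKM in HM_Ctrl against 385 in HM_DFX, and 5.05 in LM_Ctrl against 184 in LM_DFX. As for Ndrg1, LM_Ctrl was the lowest of the 4, but HM_DFX and not LM_DFX was the highest. Trp53, the p53 gene, was called higher in both, by 1.08 and 1.02, and Atf4 had 0.53 and 0.91. Egr1, an immediate early factor, had 0.23 in 4T1–HM and was called lower in 4T1–LM cells at −1.58. Mycl was called higher in both clones, by 1.13 and 1.51, Max had 0.71 and 0.47, Sp1 0.78 and 0.52 and Ezh2 0.03 and −0.14. Mycn and Wt1 were listed at 0 in every library.

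No gene of the kinases that phosphorylate Ndrg1 or of mTOR complex 2, which activates Sgk1, was called under DFX in either clone. Of 12 such genes, 10 were expressed, with a median of −0.10 in 4T1–HM and −0.19 in 4T1–LM cells. Over all expressed genes, 6.93% were called higher and 12.4% lower in 4T1–HM cells, and 7.09% and 8.72% in 4T1–LM cells. With a pseudocount of 0.1, 1 gene of the list was called in 4T1–HM and 2 in 4T1–LM cells. Sgk1 itself had −0.61 and −0.85, Sgk3 −0.71 and −0.45, Gsk3a −0.08 and 0.09, Gsk3b 0.12 and 0.62, and Pdpk1, which activates Sgk1, 0.88 and 0.68. Among the subunits of the complex, Rictor had 0.58 and 0.77, Mlst8 −0.68 and −0.35, Mapkap1 −0.12 and −0.13, Mtor −0.02 and −0.25, and Prr5 −0.35 and −0.97, while Sgk2 and Prr5l were not expressed. RNA levels say nothing of the activity of these kinases or of the phosphorylation of Ndrg1.

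The genes around Ndrg3 in lactate sensing were counted likewise. Of 10, 8 were expressed, with medians of 0.18 in 4T1–HM and 0.54 in 4T1–LM cells. None was called in 4T1–HM cells, where 6.93% of all expressed genes were called higher and 12.4% lower. In 4T1–LM cells 3 were called higher (37.5%, against 7.09% of all expressed genes). These 3 were Bsg, the chaperone of lactate transporters, with 0.39 in 4T1–HM and 1.62 in 4T1–LM cells, Vhl and Egln1. Ldha, which makes lactate, had 0.35 and 0.79, and the lactate transporter Slc16a1 had 0.14 and −0.19. Ldhb had 1 fragment in HM_Ctrl and none in HM_DFX against 205 in LM_Ctrl and 167 in LM_DFX, so that only the value of −0.67 in 4T1–LM cells carries information. The kinase gene Braf had 0.05 and 0.17, while Slc16a3 and Slc16a7 were not expressed. Ndrg3 itself had values below 0 in both clones.

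Among 23 genes listed as metastasis suppressors, other than the Ndrg genes, 20 were expressed, and 2 were called higher and 5 lower in 4T1–HM cells. In 4T1–LM cells 2 were called higher and 2 lower, and the medians were −0.25 and −0.32. The higher calls, 10% in each clone, and the lower calls in 4T1–LM cells, 10%, were near the shares of all expressed genes, 6.93%, 7.09% and 8.72%, and the lower calls in 4T1–HM cells, 25%, compare with 12.4%. Some of these lower calls were just past the threshold, such as Cdh1 at −1.07. With median–ratio scaling only 4 of the 20 were called in 4T1–HM cells, in either direction, against 7 without it, so the 25% depends on the scaling. Txnip, a thioredoxin inhibitor, was called higher in both clones, by 1.85 and 2.17. Nme2, a nucleoside diphosphate kinase, was just past the threshold in 4T1–HM cells at 1.00, from 21 and 53 fragments, and had −0.47 in 4T1–LM cells, from 13 and 6. Map2k4 had 0.31 and 0.21. Drg1, which encodes a GTP–binding protein and is not an established suppressor, is counted in these shares, with 0.17 and −0.05. The lowest values in 4T1–HM cells were those of the metalloproteinase inhibitors Timp2, with −1.88 and −0.93, and Timp1, with −1.18 and −1.22, and of Gsn, an actin–severing protein, with −1.12 and −0.54. Ndrg1 therefore stood beside only Txnip and Nme2 among the suppressors called higher in 4T1–HM cells.

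Ndrg1 is known to bind proteins that recycle E–cadherin and to restrain Wnt signaling, and 19 genes, nearly all of these pathways, were read. Of the 16 expressed, none was called higher in either clone, 4 were called lower in 4T1–HM and 2 in 4T1–LM cells, and the medians were −0.46 and −0.15. The lower calls were 25% and 12.5%, against 12.4% and 8.72% of all expressed genes, of which 6.93% and 7.09% were called higher. Ccnd1, which encodes cyclin D1 and is a target of Wnt signaling, was called lower in both, with −2.66 and −2.04. Errfi1, a feedback inhibitor of EGF receptor signaling, was also called lower in both, with −1.46 and −2.09. It belongs to neither pathway but is counted in these shares. Ctnnb1, the beta–catenin gene, had −1.83 in 4T1–HM and −0.87 in 4T1–LM cells. Cdh1, the E–cadherin gene and the remaining gene called in 4T1–HM cells, had −1.07 and −0.69. The 3 highest values in 4T1–HM cells were those of Axin1, with 0.42 and 0.32, Lrp6, with 0.20 and 0.14, and Gsk3b.

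Genes on the opposite strand overlap Ndrg1, and they are named because their fragments may include reads of Ndrg1 itself. Gm17035, an antisense gene at chr15:66929607-66931107, has all of its 419 exon bases within exons of Ndrg1. It had 211 fragments in HM_Ctrl against 601 in HM_DFX, and 45 in LM_Ctrl against 758 in LM_DFX, which is 1.08%, 1.10%, 0.884% and 0.857% of those of Ndrg1. Its FPKM was lowest in LM_Ctrl, at 6.83, as for Ndrg1, but highest in HM_DFX, at 99.9 against 82.7 in LM_DFX, unlike Ndrg1. Gm2895, which shares 137 exon bases with Ndrg1, had between 16 and 405 fragments, or 0.189% to 0.458%. The libraries were directional, but whether counting used the strand is not given in the sources used here, so fragments of Ndrg1 and of these antisense genes cannot be told apart. Both genes were chosen after their values were seen.

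Start–site regions of the members were searched for the core of the HIF response element, ACGTG, on both strands, in RefSeq windows of 300 bases on build GRCm38.p6. Of 32851 such windows of all genes, 19.6% held the motif. Windows were found for Ndrg2 (3), Ndrg3 (2) and Ndrg4 (4), and 1 window of Ndrg4 held it. No window was available for Ndrg1, so its start site was not searched. The stretch is shown because Ndrg4 was called higher under DFX in both clones, with capitals for CACGTG, in which matches on the 2 strands overlap (chr8:95677700-95677755, plus strand).
Ndrg4: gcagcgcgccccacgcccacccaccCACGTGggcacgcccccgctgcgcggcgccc
A match to 5 letters is a description and not a binding site, and the absence of one says only that these letters are not in these windows.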

How the data were processed

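Bulk RNA–seq of 4 libraries was analyzed, 1 library per condition, assigned by their labels. The authors prepared directional libraries from poly(A) RNA and checked, trimmed and aligned the paired–end reads to mm10 (FastQC, Trimmomatic, HISAT2 and featureCounts are listed in the submitters' processing notes, without versions). They deposited FPKM for 49585 genes, with no filter and no pooling.

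Gene models were those of GENCODE release M21 for the 45125 genes with the same coordinates. Whole fragments were recovered from the FPKM with these exon lengths: 96.8% of the 18235 such genes above 0 were whole, within 0.02, in all 4 libraries. For the other genes, and for Ndrg1 and Ndrg2, the length was solved from the values. With FPKM and 1 library per condition no count model was fitted. Log2 ratios used a pseudocount of 1 FPKM, a minimum FPKM of 1 in the highest library, and a threshold of 2-fold. Intervals are exact Poisson, exact conditional binomial or, for the difference in response, exact conditional, with a normal approximation for Ndrg1. The scripts were tested on simulated data. Python 3.11.15, NumPy 2.4.6, pandas 2.3.3, SciPy 1.17.1 and Biopython 1.88 were used.

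Named were the members, the 5 nearest genes of each, the 3 largest rises and falls in HM_DFX of each list, and every gene of the upstream, kinase and lactate lists. Some genes of these lists are not reported here. The lists were written from general knowledge and share genes (Egln1, Egln3, Vhl, Ldha, Slc16a3, Gsk3b and Cdh1). Members and lists were chosen with earlier results of these data known.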

Additional observations from a re-analysis of the deposited data

Results flagged for a closer look

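The members, the genes named from the lists and the nearest genes, but not the cell type markers, were compared between the clones. Flagged were DFX responses of opposite sign whose counting intervals both exclude 0. The differences, given as the log2 response in 4T1–HM minus that in 4T1–LM cells, were not tested, since each condition has 1 library. Ndrg2 had a difference of −1.45, from −0.63 in 4T1–HM and 0.82 in 4T1–LM cells, with 2 fragments in LM_Ctrl. The prolyl hydroxylase gene Egln3 had the largest of these, −2.60, from −1.36 and 1.24. Plin2 had −0.95, from −0.39 and 0.55. Egr1 had 1.81, from 0.23 and −1.58, and Slc16a1 had 0.33, from 0.14 and −0.19. Nme2 had 1.47, from 1.00 and −0.47, on at most 53 fragments in a library. The 5 genes nearest to Ndrg2 in pattern, which were chosen for that likeness, had the same signs as Ndrg2: Rere had −0.91, Il33 −1.59, Tpp1 −1.10, Grn −1.04 and Uap1l1 −1.43.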

How the results depend on the processing

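Over the 4 members, the 4 comparisons and 4 other settings, 64 of 64 values kept their sign and 62 kept their call. The 2 exceptions were Ndrg2 in LM_DFX against LM_Ctrl, at 2.61 with a pseudocount of 0.1 and 3.88 from depth–scaled fragments without one, since both settings damp low values less. The same settings gave Ndrg2 4.00 and 5.37 in HM_Ctrl against LM_Ctrl and −3.54 and −4.87 for the difference in response, and without a pseudocount it had −0.99 in 4T1–HM cells. With these 2 settings Ndrg3 had −0.79 and −0.82 in 4T1–HM and −0.59 and −0.61 in 4T1–LM cells, and Ndrg4 had 1.73 and 1.77 in 4T1–LM cells, 1.86 and 1.91 between controls and −0.56 and −0.60 for the difference in response. Median–ratio scaling gave Ndrg1 1.84 in 4T1–HM and 3.69 in 4T1–LM cells, −0.0446 between treated clones (−0.0488 with upper–quartile scaling) and −1.85 for the difference in response, and Ndrg4 1.21 in 4T1–HM cells. With release M21 exon lengths Ndrg1 made up 93.0%, 96.3% and 98.3% of the family FPKM in HM_Ctrl, HM_DFX and LM_DFX, and Ndrg2 0.813%, 0.130% and 0.0885%.

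Counts of called genes depended on the threshold by construction. At 1.5-fold, 2031 were higher and 3297 lower in HM_DFX, 2088 and 2528 in LM_DFX, 1329 and 1102 in HM_Ctrl against LM_Ctrl and 1260 and 1848 in HM_DFX against LM_DFX. At 4-fold these were 111 and 166, 180 and 134, 42 and 55, and 36 and 59. A pseudocount of 0.1 gave 2397 lower in HM_DFX, 1349 higher and 1721 lower in LM_DFX, 883 and 674 between controls and 810 and 1183 between treated clones. Among protein–coding genes alone 268 were higher in HM_DFX than in LM_DFX. At 1.5-fold, called genes in 4T1–HM cells were 14 HIF targets, 9 upstream genes and 4 kinase genes, and in 4T1–LM cells 12 upstream genes, 5 kinase genes, 5 lactate genes, 8 metastasis suppressors and 6 E–cadherin and Wnt genes. A pseudocount of 0.1 called 1 kinase gene in 4T1–HM cells, and 2 kinase genes and 7 suppressors in 4T1–LM cells. Median–ratio scaling called 1 kinase gene and 4 suppressors in 4T1–HM cells. Ranking by Pearson correlation kept 0, 0, 2 and 2 of the 5 nearest genes of Ndrg1 to Ndrg4.

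With 1 library per condition leaving out a library was not possible and variation between cultures is unknown. No paired analysis was possible because each condition has 1 library and no test was run. Depth limits Ndrg2 most, where 2 fragments in LM_Ctrl carry the comparison.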
